A study of Mus musculus with 4 samples.

Results

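The genes described here are the nuclear receptors and their coregulators in mouse ileum, read in mice given PCN and in mice given vehicle. They were chosen by name, as 41 symbols that cover the receptors of xenobiotics, bile acids, sterols, fatty acids, retinoids, thyroid hormone and steroids, the orphan receptors of the gut epithelium, the coactivators and corepressors, and the pair formed by Ahr and Arnt. Of these, 38 had rows in a table of 11489 genes, and the 38 were made of 101 of its 21160 transcripts. Nr1i3 (the constitutive androstane receptor, CAR), Nr0b2 (the small heterodimer partner) and Rora had no row and were not analysed here. The table lists only transcripts whose larger group mean was above 1 FPKM, where FPKM is a fragment count divided by the length of the transcript and by the mapped total of the library. The genes with rows were 26 nuclear receptors, 10 coregulators, Ahr and Arnt.

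The PCN group was 2 libraries of ileum RNA from wild-type C57BL/6J mice of 8 weeks. These mice received PCN (pregnenolone-16a-carbonitrile, a steroid ligand of the pregnane X receptor of rodents) into the peritoneum at 40 mg/kg, 3 times at intervals of 8 h. The vehicle group, labelled DMSO, was 2 libraries of the same tissue, strain and age. Ileum was taken 8 h after the last injection. The labels do not tie the libraries to single animals, so the p-values below measure the spread between these libraries, which may be technical. Whole tissue was used, and in such samples fewer cells of a type and less RNA per cell cannot be told apart.

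Nuclear receptors are transcription factors that bind small lipophilic ligands, and many of them bind DNA as pairs with a retinoid X receptor. With ligand bound, most recruit coactivators of the NCOA and PGC-1 families. Without it, several recruit corepressors such as NCOR1. In the ileum, HNF4 receptors maintain the program of absorptive enterocytes, the farnesoid X receptor senses bile acids taken up from the lumen, and the pregnane X receptor (PXR, encoded by Nr1i2) induces the enzymes and pumps that clear foreign compounds.

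Promoter windows from RefSeq (build GRCm38.p6) are shown for 3 receptors on which the results turn, the receptor of PCN, the receptor with the smallest p-value, and the most abundant receptor with both of its start regions. Each window is the 250 bases before a RefSeq start, written 5' to 3' on the strand of the gene. Capitals mark matches, on either strand, of the nuclear receptor half-site AGGTCA or of GTTAAT, a half-site of the HNF1 type.
Nr1i2 promoter, chr16:38294825-38295074, minus strand: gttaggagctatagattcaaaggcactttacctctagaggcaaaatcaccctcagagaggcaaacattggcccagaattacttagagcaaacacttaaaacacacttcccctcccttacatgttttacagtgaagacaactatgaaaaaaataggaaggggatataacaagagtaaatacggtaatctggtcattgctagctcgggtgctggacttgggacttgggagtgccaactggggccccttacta
Nr1h4 downstream promoter, chr10:89506659-89506908, minus strand: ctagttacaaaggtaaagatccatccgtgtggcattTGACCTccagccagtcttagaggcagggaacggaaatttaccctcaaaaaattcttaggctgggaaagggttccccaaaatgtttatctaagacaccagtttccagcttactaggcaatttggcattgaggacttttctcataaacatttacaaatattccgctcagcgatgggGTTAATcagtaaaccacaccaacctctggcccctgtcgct
Hnf4a upstream promoter, chr2:163506607-163506856, plus strand: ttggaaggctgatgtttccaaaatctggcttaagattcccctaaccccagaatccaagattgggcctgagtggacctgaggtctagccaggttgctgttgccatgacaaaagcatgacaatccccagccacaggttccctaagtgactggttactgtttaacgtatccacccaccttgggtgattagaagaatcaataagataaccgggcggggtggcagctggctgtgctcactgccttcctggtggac
Hnf4a downstream promoter, chr2:163546905-163547154, plus strand: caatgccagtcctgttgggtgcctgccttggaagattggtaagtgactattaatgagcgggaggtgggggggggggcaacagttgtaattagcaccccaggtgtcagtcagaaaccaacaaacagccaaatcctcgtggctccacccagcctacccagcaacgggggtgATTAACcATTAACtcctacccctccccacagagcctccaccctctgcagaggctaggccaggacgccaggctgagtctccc
The Nr1i2 window ended at the base before the start of the reference transcript of that gene, and held neither motif. The Nr1h4 window held 1 copy of each, and the Hnf4a downstream window held 2 copies of the HNF1-type half-site. The nuclear receptor half-site occurred in 8 of the 51 windows of member genes (15.7%), against 14.0% of all 32851 windows of the same length. The HNF1-type half-site occurred in 4 of the 51 (7.84%), against 6.43% of all. A match describes the letters and is not a binding site. Exact DR1 and DR4 elements, 2 copies of AGGTCA on the same strand with 1 or 4 bases between them, were in 0 of the 51 windows, against 0.0335% and 0.0152% of all. A promoter window was at hand for 34 members.

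The libraries were checked with PCN-responsive genes and with cell type markers. B3galt5 had 34.7 and 34.8 FPKM in PCN ileum, against 3.15 and 3.09 FPKM in vehicle ileum (log2 fold change 3.12, adjusted p = 0.0115). Cyp3a11 and Cyp2c55 are PXR targets of the cytochrome P450 family. Cyp3a11 had 163 and 214 FPKM in PCN ileum, against 26.1 and 14.7 FPKM in vehicle ileum (adjusted p = 0.0640), and Cyp2c55 had 569 and 467 FPKM in PCN ileum, against 59.4 and 27.3 FPKM in vehicle ileum (adjusted p = 0.0650), so that neither passed the threshold. Vehicle replicate 2 stood apart: alpha-defensin genes took 13.3% of its summed FPKM, against 5.75 to 6.30% in the other 3 libraries. Its smooth muscle markers were also highest, with a list sum of 566 and 646 FPKM in PCN ileum and of 829 and 1470 FPKM in vehicle ileum, and all 21 tested members were lower in PCN (median log2 fold change −0.81, 13 at unadjusted p under 0.05, 0 past the adjusted threshold). The adipocyte list summed to 71.2 and 85.2 FPKM in PCN ileum, against 87.5 and 170.4 FPKM in vehicle ileum. The epithelial list, which marks the tissue as gut lining, summed to 8579 and 7718 FPKM in PCN ileum, against 8515 and 8200 FPKM in vehicle ileum. Of 11 markers of liver and other gut regions, 3 had rows. They summed to 115 and 69.6 FPKM in PCN ileum, against 32.0 and 26.2 FPKM in vehicle ileum, with 2 positive fold changes and 1 negative. Most of that sum was 1 gene, with a mean of 51.4 FPKM over all libraries, against 6.48 and 2.84 FPKM for the other 2. Whether the pieces of gut sampled differed between the groups was not tested. The enterocyte list summed to 12886 and 12212 FPKM in PCN ileum, against 17204 and 15409 FPKM in vehicle ileum. Most of that difference came from its most abundant gene, Fabp6, whose values are given below (mean of 5674 FPKM over all libraries). Of 15 enterocyte markers tested, 10 had a negative and 5 a positive fold change (median −0.19 on the log2 scale). Among them 2 fell (Fabp2 and Mme), and 8 were lower and 1 was higher at an unadjusted p under 0.05.

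Across all members, receptors and coregulators were not called as changed by PCN. Of the 37 members with a mean of at least 1 FPKM, 0 passed an adjusted p of 0.05 in limma, against 0.135% of all 11103 genes tested, and the smallest adjusted p was 0.425. At an unadjusted p under 0.05 there was 1 member (Nr1h4, higher in PCN), a share of 1 in 37, against 9.36% of all genes (5.25% higher and 4.11% lower in PCN). The number of members at that unadjusted p was 5 and 4 when vehicle replicate 1 or 2 was left out and 1 and 2 when PCN replicate 1 or 2 was, and 0 passed the adjusted threshold in any of these fits. Both PCN libraries were above both vehicle libraries for 11 members and below both for 5, and the groups overlapped for 21. Among all genes, 40.2% had groups that did not overlap, 21.1% with PCN above and 19.1% with PCN below. The fold change was positive for 25 members and negative for 12, with a median log2 fold change of 0.06 against 0.0029 over all genes, and it ran from −1.04 (Ppargc1a) to 0.48 (Nr1h4).

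The intervals say how large a change could have been missed. For 33 of the 37 members the 95% confidence interval of the log2 fold change lay between −1 and 1 on the log2(FPKM + 1) scale. At low levels that scale compresses FPKM, so these bounds do not exclude a doubling or halving of FPKM for members of a few FPKM. The 4 others were Ncoa1, Ncoa2, Ppargc1a and Nr2f2, all below 10 FPKM on average. With 2 residual degrees of freedom the spread is poorly known, and an exact two-sided permutation test of 2 libraries against 2 cannot give a p below 0.333.

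**Figure D1:**
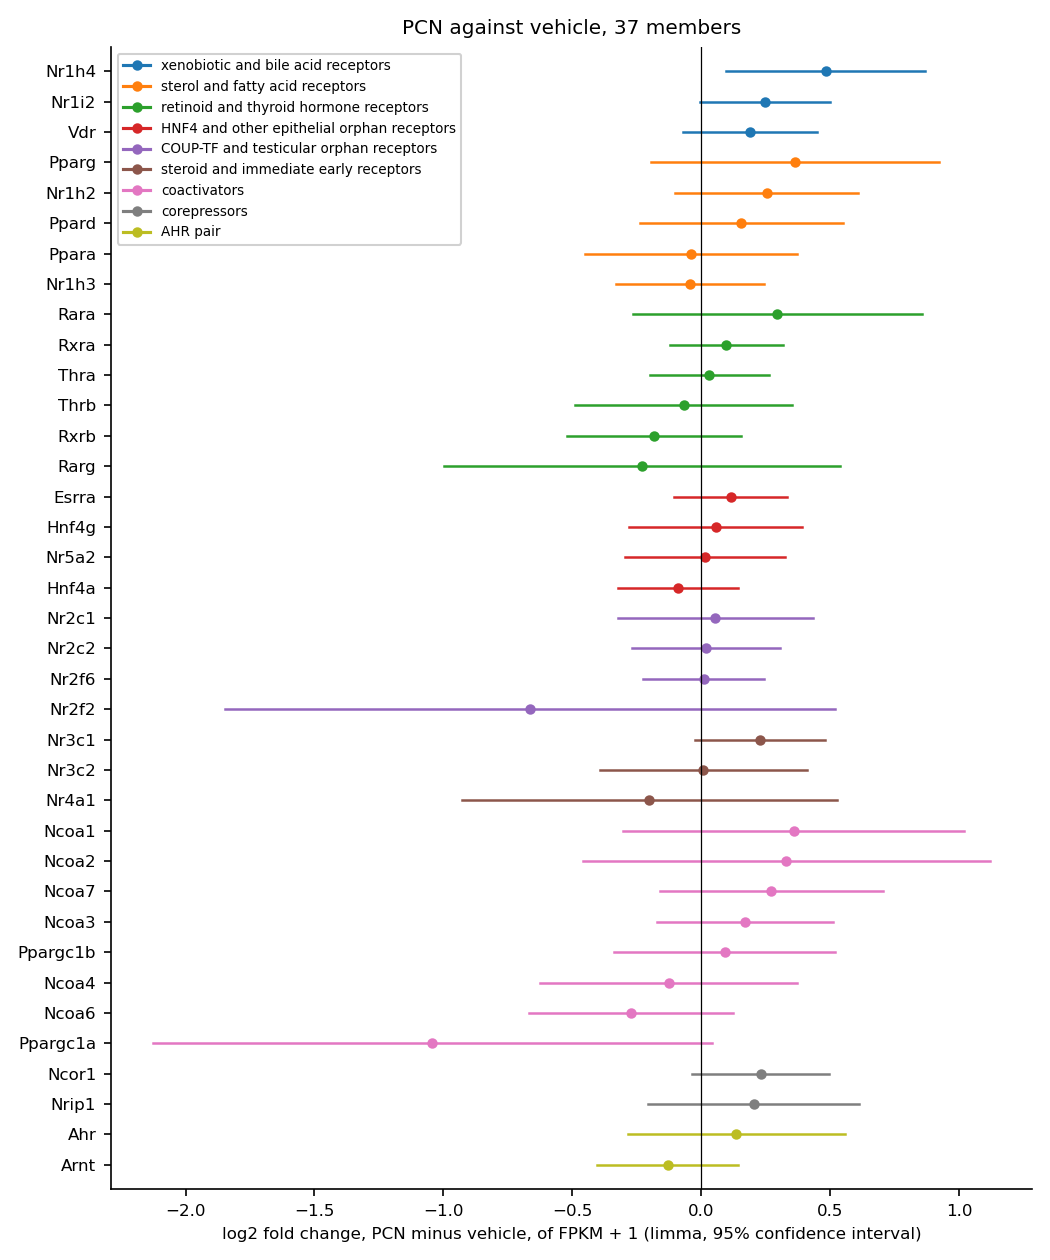
Log2 fold change, PCN minus vehicle, of FPKM + 1 for the 37 members tested, grouped by role and coloured by it. Points are limma estimates and lines are 95% confidence intervals. The interval of Nr1h4 lies above 0, those of the other 36 members cross it, and that of Ppargc1a is among the widest.

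Pregnane X receptor was moderately abundant in this tissue. Nr1i2 (chr16:38248323-38294824, minus strand, mm10) had 36.4 and 34.1 FPKM in PCN ileum, against 27.9 and 31.3 FPKM in vehicle ileum. Both PCN libraries were above both vehicle libraries, with means of 35.3 ± 1.59 FPKM in PCN ileum and 29.6 ± 2.38 FPKM in vehicle ileum (SD, n = 2 each). The log2 fold change of 0.25 ± 0.098 (SE) had a 95% interval from −0.0054 to 0.50 and did not pass the threshold (limma, unadjusted p = 0.0535, adjusted p = 0.539). Nearly all of the level came from 1 transcript, whose values of 35.1 and 33.6 FPKM in PCN ileum stood above 27.3 and 29.3 FPKM in vehicle ileum (log2 fold change 0.27, unadjusted p = 0.0292, adjusted p = 0.481 over transcripts). A second transcript with the same nearest reference was at 1.31 and 0.577 FPKM in PCN ileum, against 0.586 and 1.93 FPKM in vehicle ileum.

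Ordered by mean FPKM, which is per length and so can be set between genes, Nr1i2 was 11th among the 38 members and above 80.8% of all genes tested. Hnf4a came first, followed by Nr1h4, Hnf4g, Esrra, Vdr, Ppard, Rxra, Nr3c1, Ncor1 and Nr1h2. Its 4 libraries overlapped in range with those of its neighbours Nr1h2 and Thra, so the order among these was not resolved. Along the whole order, ranges over the 4 libraries overlapped for 31 of 37 neighbouring pairs. The 6 gaps without overlap came after Hnf4a, Vdr, Thra, Nr2f6, Nr2c2 and Ppara. The mean was above 10 FPKM for 19 members and above 20 FPKM for 13.

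**Figure D2:**
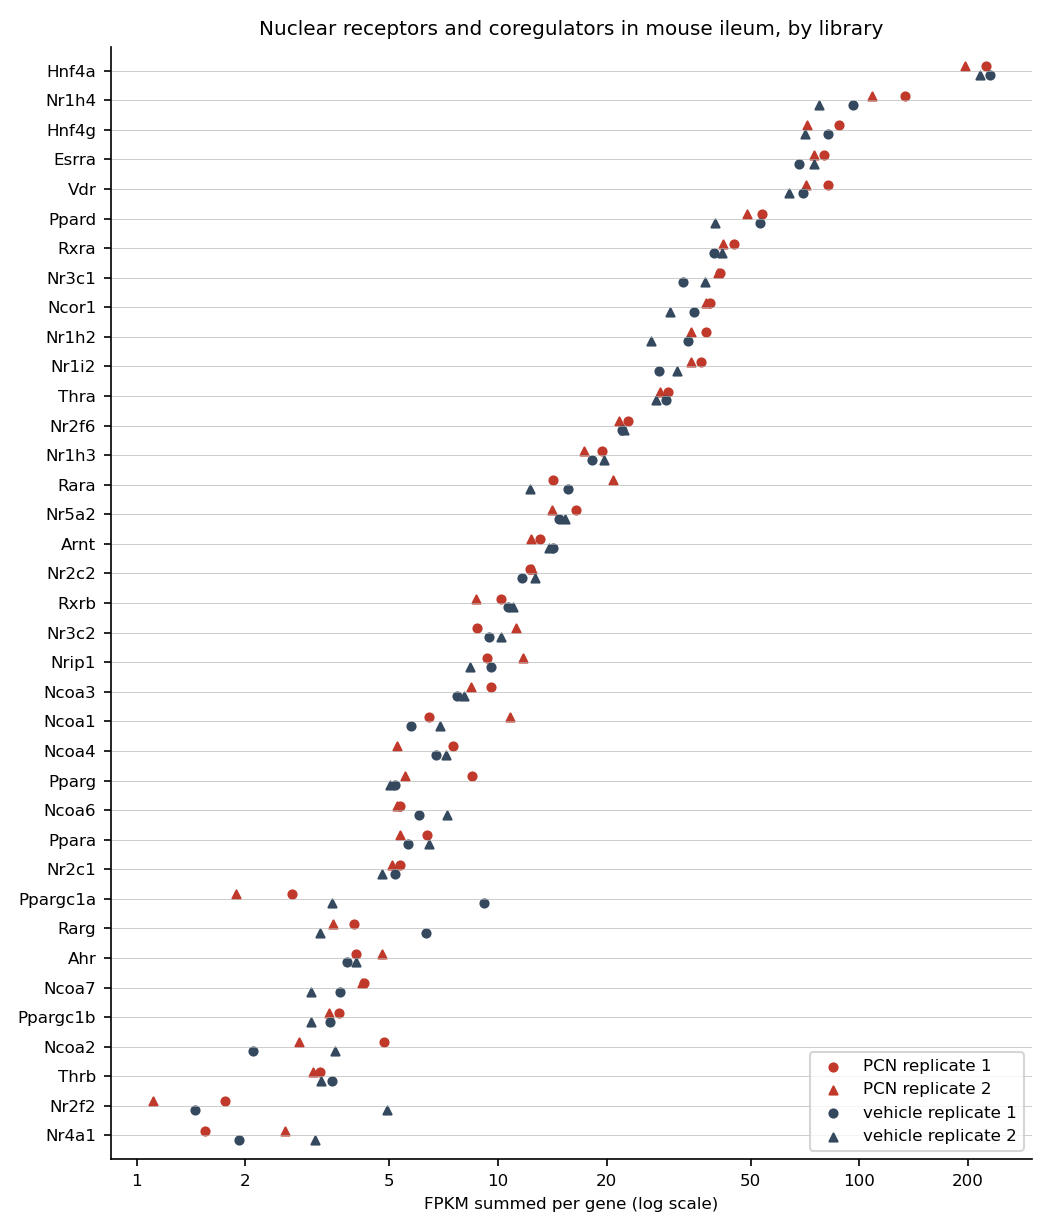
FPKM summed per gene on a log scale for the 37 members tested, in order of their mean over the 4 libraries. Red points are PCN libraries and dark points vehicle libraries, circles replicate 1 and triangles replicate 2. Hnf4a stands alone at the top between 196 and 230.2 FPKM, and Nr1i2 lies between 27.9 and 36.4 FPKM.

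The farnesoid X receptor gene Nr1h4 (chr10:89454234-89533585, minus strand) was the member with the smallest p-value. It had 134 and 109 FPKM in PCN ileum, against 95.9 and 77.4 FPKM in vehicle ileum. The lowest PCN library was above the highest vehicle library, and the log2 fold change was 0.48 with a 95% interval from 0.10 to 0.87 (limma, unadjusted p = 0.0239, adjusted p = 0.425). With the level of smooth muscle markers as a covariate the log2 fold change was 0.10 (unadjusted p = 0.605). That marker score was 3.49 and 3.72 in PCN ileum, against 4.11 and 5.02 in vehicle ileum. It separated the groups, so fits with this covariate, here and below, cannot tell it apart from treatment. Without vehicle replicate 2 or PCN replicate 1 the log2 fold change of Nr1h4 was 0.33. Without vehicle replicate 1 or PCN replicate 2 it was larger than the 0.48 of all libraries. The vitamin D receptor gene Vdr, which in the gut drives calcium uptake, had 81.9 and 71.0 FPKM in PCN ileum and 69.8 and 64.0 FPKM in vehicle ileum (log2 fold change 0.19, adjusted p = 0.650). Its groups did not overlap either, narrowly, and its log2 fold change was 0.01 with the smooth muscle covariate, 0.09 without PCN replicate 1 and 0.29 without PCN replicate 2.

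At both start regions of Nr1h4 the PCN libraries were above the vehicle libraries. The deposited transcripts were assembled, and each was named here by its nearest reference in the annotation, whose start may differ from that of the assembled one. Transcripts matched to the downstream start, whose window is printed above, had 96.4 and 82.1 FPKM in PCN ileum, against 69.8 and 57.8 FPKM in vehicle ileum (unadjusted p = 0.0197). Those matched to the upstream start, 26936 bases away, had 37.7 and 26.5 FPKM in PCN ileum, against 26.1 and 19.5 FPKM in vehicle ileum (unadjusted p = 0.103). The downstream start took 71.9% and 75.6% of the gene in PCN ileum and 72.8% and 74.8% in vehicle ileum, ranges that overlap. The ratio of Nr1h4 to Nr1i2 was 3.68 and 3.18 in PCN ileum, against 3.44 and 2.47 in vehicle ileum.

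The HNF4 receptors were among the most abundant members. Hnf4a (chr2:163506808-163572910, plus strand) had 225 and 196 FPKM in PCN ileum, against 230.2 and 216 FPKM in vehicle ileum (log2 fold change −0.09, interval −0.32 to 0.14). Hnf4g, its paralog in gut epithelium, had 87.6 and 71.6 FPKM in PCN ileum and 82.0 and 70.8 FPKM in vehicle ileum (log2 fold change 0.06). The groups overlapped for both. Together they made up 31.6% and 30.2% of the summed FPKM of the 26 receptors in PCN ileum, against 35.0% and 34.1% in vehicle ileum. The sum itself was 987 and 886 FPKM in PCN ileum and 893 and 842 FPKM in vehicle ileum.

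The 2 start regions of Hnf4a, the upstream one (P2) and the downstream one (P1), give receptors with different amino termini. All FPKM of Hnf4a were matched to the downstream start in both PCN libraries and in vehicle replicate 1. A transcript matched to the upstream start, 40379 bases away, was listed at 0 in those 3 libraries and at 2.27 FPKM in vehicle replicate 2, which was 1.05% of the gene there. That value was identical in all digits to a value of another gene. The upstream reference had only 431 bases, against 4362 bases for the downstream one. An assembled transcript that began upstream could thus have been matched to the downstream reference, which was not tested. Hnf4g also had 2 reference starts, of which the downstream one took 82.9% and 85.7% in PCN ileum and 83.8% and 83.1% in vehicle ileum. Of the other epithelial orphan receptors, Esrra, which controls mitochondrial genes, had 79.8 and 74.8 FPKM in PCN ileum and 68.0 and 74.9 FPKM in vehicle ileum (log2 fold change 0.11). Nr5a2, the liver receptor homolog expressed in crypts, had 16.4 and 14.1 FPKM in PCN ileum and 14.8 and 15.3 FPKM in vehicle ileum (log2 fold change 0.01).

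**Figure D3:**
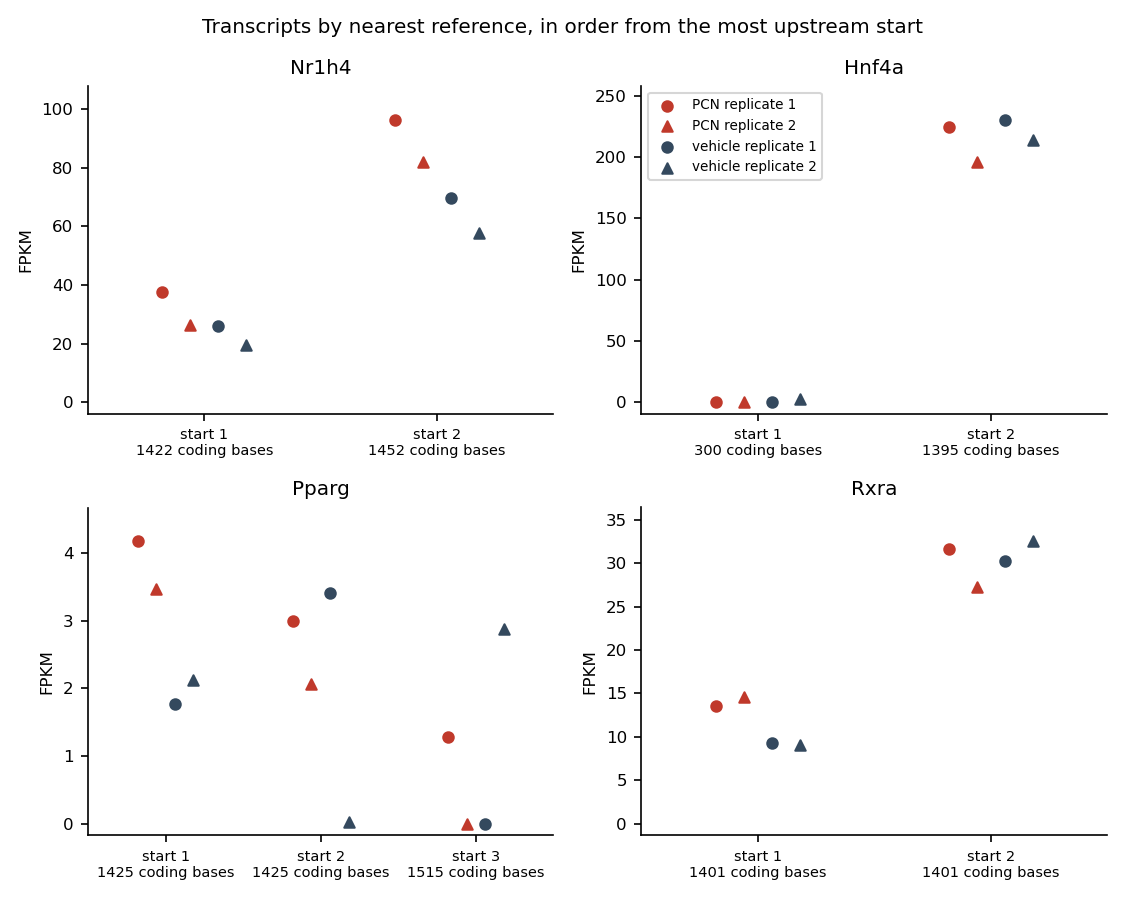
FPKM of transcripts by nearest reference for Nr1h4, Hnf4a, Pparg and Rxra, with references ordered from the most upstream start and labelled with their coding length. Red points are PCN libraries and dark points vehicle libraries, circles replicate 1 and triangles replicate 2. For Nr1h4 both starts lie higher in PCN, and for Hnf4a the first start is at or near 0 in every library.

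The retinoid X receptors pair with PXR and with most other receptors listed here. Rxra (chr2:27676440-27762957, plus strand) had 45.1 and 41.9 FPKM in PCN ileum, against 39.5 and 41.6 FPKM in vehicle ileum, a log2 fold change of 0.10 with groups that nearly touch (interval −0.12 to 0.32, adjusted p = 0.766). Rxrb had 10.2 and 8.69 FPKM in PCN ileum and 10.6 and 11.0 FPKM in vehicle ileum (log2 fold change −0.18, adjusted p = 0.723). The 2 RXR genes summed to 55.3 and 50.6 FPKM in PCN ileum and to 50.2 and 52.6 FPKM in vehicle ileum, with no separation of the groups. Their 13 partner receptors summed to 429 and 384 FPKM in PCN ileum, against 364 and 316 FPKM in vehicle ileum. There were thus 7.76 and 7.60 FPKM of partners for each FPKM of RXR in PCN ileum, against 7.25 and 6.01 in vehicle ileum. Rxra exceeded Nr1i2 in all 4 libraries, by a ratio of 1.24 and 1.23 in PCN ileum and of 1.42 and 1.33 in vehicle ileum.

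Rxra had transcripts matched to 2 starts, and the difference between them was not tested. The main one matched to the first start had 12.0 and 13.9 FPKM in PCN ileum, against 8.57 and 7.75 FPKM in vehicle ileum (log2 fold change 0.60, unadjusted p = 0.00752, adjusted p = 0.350 over transcripts). That matched to the second start had 31.6 and 27.3 FPKM in PCN ileum and 30.3 and 32.5 FPKM in vehicle ileum (log2 fold change −0.09). The 3 transcripts of Rxrb were between 1.27 and 6.13 FPKM, and their share of the gene differed between replicates of the same group. Both references of Rxra share the same coding length of 1401 bases.

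Among the retinoic acid receptors, Rara had 14.2 and 20.8 FPKM in PCN ileum and 15.6 and 12.3 FPKM in vehicle ileum (log2 fold change 0.29), and its high PCN replicate 2 held 4.99 FPKM of a transcript listed at 0 in the other 3 libraries. Rarg had 4.01 and 3.49 FPKM in PCN ileum and 6.34 and 3.22 FPKM in vehicle ileum (log2 fold change −0.23), with 3.55 FPKM of vehicle replicate 1 from a transcript listed at 0 in the others. Rarb was listed at 0 and 3.80 FPKM in PCN ileum and at 0 in both vehicle libraries, and was below the filter for testing. It shares 1793 exonic bases with Top2b on the opposite strand. The lone values of Rarb (3.80 FPKM) and of that Rarg transcript (3.55 FPKM) were each identical in all digits to a value of another gene. The groups of Rara and Rarg overlapped, and in each case 1 transcript of 1 library set the highest value.

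Thyroid hormone receptor alpha is made in a form that binds hormone and a longer splice form that does not. Thra as a whole had 29.6 and 28.1 FPKM in PCN ileum and 29.2 and 27.3 FPKM in vehicle ileum (log2 fold change 0.03). Transcripts matched to the reference with 1230 coding bases, the length of the hormone-binding form, had 13.8 and 16.0 FPKM in PCN ileum and 16.4 and 15.6 FPKM in vehicle ileum. Those matched to the reference with 1476 coding bases had 13.7 and 10.4 FPKM in PCN ileum and 11.6 and 11.7 FPKM in vehicle ileum, so both forms were listed in all 4 libraries and the groups overlapped for each. Thrb had 3.21 and 3.08 FPKM in PCN ileum and 3.46 and 3.23 FPKM in vehicle ileum (log2 fold change −0.07). Thra shares 263 exonic bases on the opposite strand with Nr1d1, and reads there cannot be assigned without strand.

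Sterol and fatty acid receptors had 5 members with rows. Ppard, the most abundant of them, had 54.0 and 48.8 FPKM in PCN ileum and 53.0 and 39.9 FPKM in vehicle ileum (log2 fold change 0.16). The liver X receptor beta gene Nr1h2, a sensor of oxysterols, had 37.5 and 34.2 FPKM in PCN ileum, against 33.7 and 26.5 FPKM in vehicle ileum (log2 fold change 0.25, adjusted p = 0.661). Its PCN libraries were above both vehicle libraries, and its log2 fold change was −0.11 with the smooth muscle covariate, 0.09 without vehicle replicate 2 and 0.42 without vehicle replicate 1 (unadjusted p = 0.0251, adjusted p = 0.367). Nr1h3, the alpha form, had 19.4 and 17.3 FPKM in PCN ileum and 18.2 and 19.7 FPKM in vehicle ileum (log2 fold change −0.04). Ppara, the fasting and fibrate receptor, had 6.35 and 5.36 FPKM in PCN ileum and 5.64 and 6.44 FPKM in vehicle ileum (log2 fold change −0.04). The groups of Nr1h3 and Ppara overlapped.

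Pparg, the adipocyte regulator that is also expressed in gut epithelium, had 8.45 and 5.53 FPKM in PCN ileum, against 5.18 and 5.02 FPKM in vehicle ileum (log2 fold change 0.36, adjusted p = 0.684). Its groups did not overlap, and PCN replicate 1 carried most of the difference, since without it the log2 fold change was 0.10. The transcript matched to the most upstream start had 4.17 and 3.47 FPKM in PCN ileum, against 1.77 and 2.12 FPKM in vehicle ileum (log2 fold change 0.71, unadjusted p = 0.0201, adjusted p = 0.445 over transcripts). The transcript matched to the reference with 1515 coding bases, the length of the adipocyte form, was uneven within groups, at 1.28 and 0.000306 FPKM in PCN ileum and at 4.97e-05 and 2.87 FPKM in vehicle ileum. The adipocyte marker sums are given above, and their part in the level of Pparg was not tested.

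Of the steroid receptors, the glucocorticoid receptor gene Nr3c1 had 41.3 and 40.6 FPKM in PCN ileum, against 32.5 and 37.3 FPKM in vehicle ileum (log2 fold change 0.23, adjusted p = 0.565). The groups did not overlap for the sum, but its main transcript did not separate them, with 31.2 and 23.2 FPKM in PCN ileum and 26.5 and 29.3 FPKM in vehicle ileum (log2 fold change −0.05). A minor transcript had 3.69 and 2.42 FPKM in PCN ileum and was listed at 0 in both vehicle libraries, and 1 of its PCN values was identical to that of another gene. Another transcript was listed at 0 in vehicle replicate 1 alone. Leaving out transcripts listed at 0 in 2 or more libraries gave the gene a log2 fold change of 0.12. The mineralocorticoid receptor gene Nr3c2 had 8.74 and 11.2 FPKM in PCN ileum and 9.47 and 10.2 FPKM in vehicle ileum (log2 fold change 0.01). Nr4a1, an immediate early gene, had 1.55 and 2.58 FPKM in PCN ileum and 1.92 and 3.12 FPKM in vehicle ileum (log2 fold change −0.20).

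Orphan receptors of the COUP-TF and testicular receptor families had groups that overlapped for all 4 members. Nr2f6 had 23.0 and 21.7 FPKM in PCN ileum and 22.0 and 22.3 FPKM in vehicle ileum, Nr2c2 had 12.2 and 12.4 FPKM in PCN ileum and 11.7 and 12.7 FPKM in vehicle ileum, and Nr2c1 had 5.34 and 5.09 FPKM in PCN ileum and 5.20 and 4.78 FPKM in vehicle ileum. Their log2 fold changes were 0.01, 0.02 and 0.05. Nr2f2, which is expressed in mesenchyme, had 1.75 and 1.11 FPKM in PCN ileum and 1.45 and 4.95 FPKM in vehicle ileum (log2 fold change −0.66, interval −1.85 to 0.52). Its highest value was in vehicle replicate 2, the library with the highest smooth muscle sum, and the part of that in the result was not tested. Nr2f6 shares 1622 exonic bases with Ocel1 and Nr2c2 shares 4590 with Mrps25, both on the opposite strand.

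Coregulators had a median level of 6.32 FPKM, against 18.6 FPKM for the 25 receptors tested. The 10 genes summed to 92.3 and 91.4 FPKM in PCN ileum, against 89.0 and 80.8 FPKM in vehicle ileum. Of the 10, 0 were called (0.135% of all genes) and 0 had an unadjusted p under 0.05 (9.36% of all genes). At such shares a count of 0 among 10 genes says little. The corepressor Ncor1 was the most abundant, with 38.7 and 37.6 FPKM in PCN ileum, against 34.9 and 30.0 FPKM in vehicle ileum (log2 fold change 0.23, adjusted p = 0.575). Its groups did not overlap. Its log2 fold change was 0.12 without vehicle replicate 2, 0.34 without vehicle replicate 1 and 0.01 with the smooth muscle covariate. Ncor1 was spread over 11 transcripts, more than any other member. The transcript matched to a reference with 471 coding bases had 6.99 and 6.12 FPKM in PCN ileum, against 4.36 and 3.22 FPKM in vehicle ileum (log2 fold change 0.67, unadjusted p = 0.0190, adjusted p = 0.439 over transcripts). Another matched to a reference with 7362 coding bases had 5.55 and 3.80 FPKM in PCN ileum, against 0.00224 and 1.39 FPKM in vehicle ileum. A further transcript of that coding length had 4.10 and 3.40 FPKM in PCN ileum, against 7.54 and 4.94 FPKM in vehicle ileum. Direction thus differed between transcripts of Ncor1. Nrip1 (RIP140), a corepressor of lipid and energy metabolism, had 9.30 and 11.7 FPKM in PCN ileum and 9.54 and 8.35 FPKM in vehicle ileum (log2 fold change 0.20).

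The p160 coactivators Ncoa1, Ncoa2 and Ncoa3 bind liganded receptors through leucine-rich motifs. Ncoa3 had 9.56 and 8.43 FPKM in PCN ileum, against 7.68 and 8.05 FPKM in vehicle ileum, with groups that did not overlap (log2 fold change 0.17, adjusted p = 0.735). Ncoa1 had 6.44 and 10.8 FPKM in PCN ileum and 5.76 and 6.91 FPKM in vehicle ileum (log2 fold change 0.36). Ncoa2 had 4.84 and 2.82 FPKM in PCN ileum and 2.10 and 3.55 FPKM in vehicle ileum (log2 fold change 0.33). For Ncoa1 and Ncoa2 the difference between replicates of PCN ileum was larger than that between group means.

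The other coactivators split in direction without a call. Ncoa6 had 5.35 and 5.26 FPKM in PCN ileum, against 6.04 and 7.24 FPKM in vehicle ileum, below both vehicle libraries (log2 fold change −0.27, adjusted p = 0.671). Ncoa7 had 4.27 and 4.21 FPKM in PCN ileum, against 3.66 and 3.04 FPKM in vehicle ileum, above both (log2 fold change 0.27, adjusted p = 0.691). Its short form, with 483 coding bases, took 72.9% and 60.7% of the gene in PCN ileum and 73.3% and 54.5% in vehicle ileum, with no separation. Ncoa4, known also as a carrier of ferritin to lysosomes, had 7.49 and 5.24 FPKM in PCN ileum and 6.72 and 7.18 FPKM in vehicle ileum (log2 fold change −0.13).

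The PGC-1 coactivators, which drive mitochondrial and gluconeogenic genes, gave the member with the largest fitted fold change in size. Ppargc1a had 2.69 and 1.89 FPKM in PCN ileum, against 9.15 and 3.46 FPKM in vehicle ileum (log2 fold change −1.04, interval −2.13 to 0.04, adjusted p = 0.547). Of the 9.15 FPKM in vehicle replicate 1, 5.56 came from a transcript listed at 0 in the other 3 libraries. The remaining transcript had 2.69 and 1.89 FPKM in PCN ileum, against 3.58 and 3.46 FPKM in vehicle ileum (log2 fold change −0.47, unadjusted p = 0.0554 with such transcripts left out, adjusted p = 0.501). PCN libraries were thus below both vehicle libraries either way, and the size of the difference rested on that transcript. The log2 fold change was −0.45 without vehicle replicate 1, −1.64 without vehicle replicate 2 (unadjusted p = 0.00423, adjusted p = 0.395) and −2.32 with the smooth muscle covariate (unadjusted p = 0.000966, adjusted p = 0.295). Ppargc1b had 3.63 and 3.40 FPKM in PCN ileum and 3.44 and 3.04 FPKM in vehicle ileum (log2 fold change 0.09).

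Ahr and Arnt, the ligand-binding and common subunits of the dioxin receptor, are not nuclear receptors but sense xenobiotics in the same tissue. Ahr had 4.06 and 4.78 FPKM in PCN ileum, against 3.82 and 4.04 FPKM in vehicle ileum (log2 fold change 0.13, adjusted p = 0.843). Arnt had 13.1 and 12.3 FPKM in PCN ileum, against 14.2 and 13.8 FPKM in vehicle ileum (log2 fold change −0.13, adjusted p = 0.748). The groups of neither gene overlapped, in opposite directions, at differences within 1 FPKM for Ahr and 2 FPKM for Arnt.

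Over single transcripts the members were again not called. Of 92 member transcripts with a mean of at least 1 FPKM, 0 passed the adjusted threshold, against 0.00544% of 18397 transcripts, and 7 had an unadjusted p under 0.05, against 8.84%. All 7 were higher in PCN, where 852 of all transcripts were higher and 775 lower at that p, and they belonged to Nr1i2, Nr1h4, Rxra, Nr3c1, Pparg and, with 2 transcripts, Ncor1. The smallest adjusted p was 0.330, for the Nr3c1 transcript listed at 0 in vehicle ileum. Of the 101 member transcripts 14 were listed at 0 in at least 1 library and 18 (17.8%) had a value identical in all digits to that of some other gene, against 17.4% of all transcripts.

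Genes that the receptors are known to regulate were read beside them, as 10 lists from textbook knowledge. B3galt5, on the PXR list, is an exception. The study named it a PXR target, starting from RNA sequencing of mice given PCN. It also used PXR knockout mice, promoter binding assays and a promoter reporter. Because the study started from such sequencing, the call of B3galt5 here is not independent evidence. All 10 lists were chosen with earlier results of these libraries known, so their counts and calls, here and below, are not independent evidence. Of 153 listed genes tested, 6 passed the adjusted threshold, 4 higher and 2 lower in PCN, against 0.135% of all genes. That count was 4 without vehicle replicate 1 and 0 without any 1 of the other 3 libraries. Among the targets of PXR and CAR, 27 of 27 tested genes had a positive fold change (median 1.16 on the log2 scale). An unadjusted p under 0.05 was found for 19, against 9.36% of all genes, and 3 rose. These were B3galt5, given above, the glutathione transferase gene Gsta1 (185 and 139 FPKM in PCN ileum, against 36.6 and 28.9 FPKM in vehicle ileum, adjusted p = 0.0481) and the P450 gene Cyp2c66 (19.9 and 11.9 FPKM in PCN ileum, against 0.384 and 1.55e-06 FPKM in vehicle ileum, adjusted p = 0.0484). The limit given above for all 10 lists holds for the direction and the calls of this one. Beside that median, the log2 fold changes of the receptor pair itself were 0.25 for Nr1i2 and 0.10 for Rxra.

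Of 10 farnesoid X receptor targets tested, 0 were called, 0 were higher and 4 were lower at an unadjusted p under 0.05 (5.25% and 4.11% of all genes), and the median log2 fold change was −0.08. Fgf15, the ileal hormone that curbs bile acid synthesis in liver, had 14.1 and 11.3 FPKM in PCN ileum, against 72.2 and 29.1 FPKM in vehicle ileum (log2 fold change −1.78, adjusted p = 0.292). Fabp6, the ileal bile acid binding protein, had 4228 and 3652 FPKM in PCN ileum, against 8059 and 6757 FPKM in vehicle ileum (log2 fold change −0.91, adjusted p = 0.109). Apoc2 had 12.5 and 12.4 FPKM in PCN ileum, against 24.5 and 24.4 FPKM in vehicle ileum, and the bile acid exporter subunit Slc51a had 335 and 295 FPKM in PCN ileum, against 489 and 424 FPKM in vehicle ileum (adjusted p = 0.0650 and 0.209). In each of the 4, which were named for their p-values, both PCN libraries were below both vehicle libraries. Of all genes, 19.1% had PCN below and 21.1% had PCN above in this way. The PCN libraries were above both for 2 other targets, Pltp (9.30 and 8.31 FPKM in PCN ileum, against 7.11 and 7.27 FPKM in vehicle ileum) and Angptl8 (1.65 and 1.21 FPKM in PCN ileum, against 0.978 and 1.15 FPKM in vehicle ileum). The groups overlapped for the other 4. Fabp6 is itself on the enterocyte list and carries most of its lower sum given above, so that sum is not separate from Fabp6. The part of enterocyte content in these values was not tested.

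Among targets of the vitamin D receptor and of the liver X receptors 0 were called. Of 6 vitamin D targets, 4 were higher at an unadjusted p under 0.05, a share to read beside 5.25% of all genes (median log2 fold change 0.71), among them S100g, the calcium-binding protein calbindin-D9k, with 348 and 245 FPKM in PCN ileum, against 60.4 and 36.8 FPKM in vehicle ileum (log2 fold change 2.60, adjusted p = 0.0689). The calcium pump gene Atp2b1 had 113 and 103 FPKM in PCN ileum, against 62.6 and 53.1 FPKM in vehicle ileum (adjusted p = 0.0860). The efflux pump gene Abcb1a is on both this list and that of PXR. Of 14 liver X receptor targets, 4 were higher and 1 lower at that p, with 9 positive and 5 negative fold changes (median 0.16 on the log2 scale). The 2 with the smallest p-values encode sterol transporters. Abcg8 had 71.8 and 69.6 FPKM in PCN ileum, against 46.7 and 40.9 FPKM in vehicle ileum (adjusted p = 0.109), and Abca1 had 3.99 and 4.03 FPKM in PCN ileum, against 1.21 and 1.14 FPKM in vehicle ileum (adjusted p = 0.129).

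Lists of the other receptors held single calls in mixed directions. The counts below are to be read beside all genes, of which 5.25% were higher and 4.11% lower at an unadjusted p under 0.05. Of 31 PPAR targets, 9 were higher and 2 lower at an unadjusted p under 0.05 and 1 fell, Fabp2, the intestinal fatty acid binding protein, with 9.45 and 12.3 FPKM in PCN ileum, against 50.5 and 46.8 FPKM in vehicle ileum (log2 fold change −2.08, adjusted p = 0.0397). Fabp2 is also the 1 called gene of the 23 HNF4 targets, of which 1 was higher and 7 lower at that p (median −0.06). Of 14 glucocorticoid receptor targets, 4 were higher and 2 lower at that p. The metallothionein gene Mt2 rose, with 450 and 537 FPKM in PCN ileum, against 128 and 135 FPKM in vehicle ileum (log2 fold change 1.90, adjusted p = 0.0269). The kinase gene Sgk1 fell, with 23.5 and 25.1 FPKM in PCN ileum, against 55.4 and 59.0 FPKM in vehicle ileum (log2 fold change −1.20, adjusted p = 0.0443).

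Retinoic acid receptor targets (12 tested, 0 called) included Rbp2, the retinol binding protein of enterocytes, with 167 and 175 FPKM in PCN ileum, against 255 and 260.2 FPKM in vehicle ileum (log2 fold change −0.59, adjusted p = 0.0689). Of 5 Ahr targets and 19 targets of Esrra and thyroid hormone receptors, 0 were called, with medians of −0.05 and −0.04. Among 42 other coregulators 2 were higher at an unadjusted p under 0.05 (Tbl1xr1 and Cited2). In a list of 16 chaperone genes 1 was (Hsp90b1, the HSP90 paralog of the endoplasmic reticulum). Both counts are near the share of all genes higher at that p (5.25%), and 0 were called in either list.

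**Figure D4:**
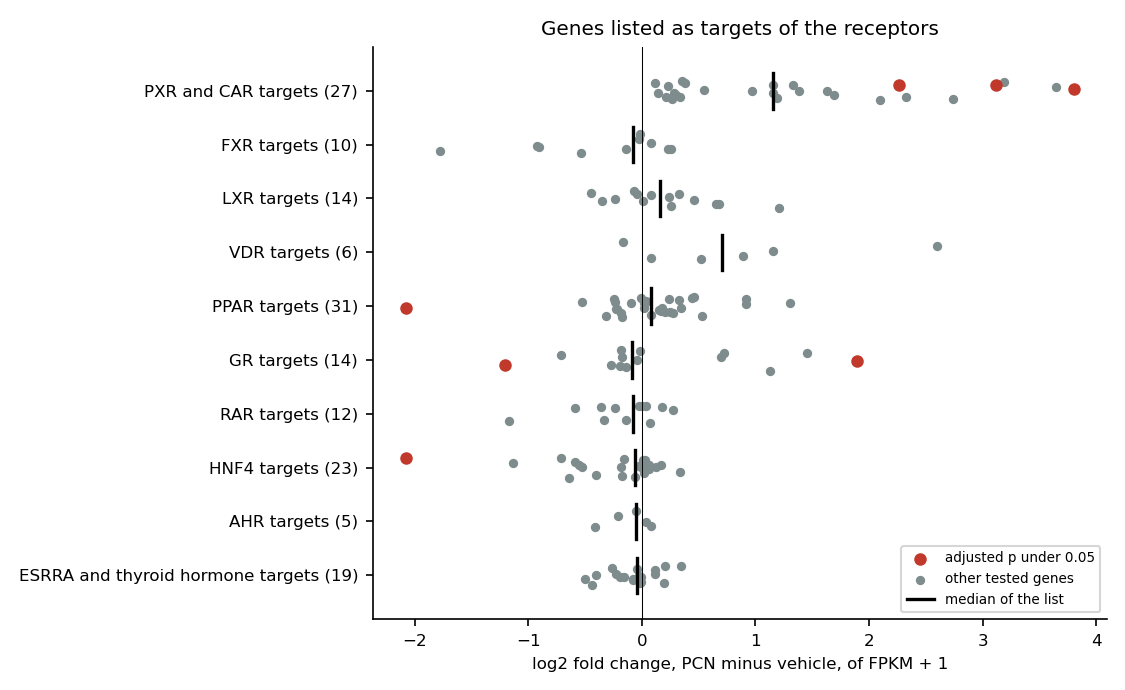
Log2 fold change, PCN minus vehicle, of FPKM + 1 for the genes of 10 receptor target lists, with the number tested in parentheses. Grey points are tested genes, red points those with an adjusted p under 0.05, and black bars list medians. The PXR and CAR list lies to the right of 0 with a median of 1.16, and the list of farnesoid X receptor targets has its median at −0.08.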

How the data were processed

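Libraries came from total RNA of ileum (SMARTER kit per the labels), which also gave groups and replicate numbers. The deposited values were FPKM per transcript, with mm10 as the build named in the submitters' processing notes. Neither the aligner nor the program behind the FPKM is given in the sources used here. Supplementary methods of the study describe colon libraries, another kit, a pig genome and gene counts, which conflicts with these labels and values, and were not taken as the source. Only protein-coding transcripts whose larger group mean was above 1 FPKM were in the deposited table. An exact 0 can be a failed estimate. FPKM hides read depth, and low values showed no common worth of 1 read (the commonest ratio of PCN replicate 1 to vehicle replicate 1 held for 35 of 6690 transcripts), so depth was treated as unknown and no counting intervals are given. Use of strand in the counting is not given in the sources.

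Values were added up per gene symbol, and every gene averaging 1 FPKM or more entered a limma fit (limma 3.58.1 in R 4.3.3) of log2(FPKM + 1) with a trend of variance on level. This scale understates the change of low genes. Adjustment followed Benjamini and Hochberg over all genes, at a threshold of 0.05. Transcripts were fitted likewise. A count model had been planned only for a table of counts. Gene positions were from GENCODE M21 (GRCm38, the assembly of mm10), which held 99.7% of the nearest reference names, and promoters from RefSeq. Protein sequence features of the members were planned and not run. The smooth muscle score was the mean log2 level of its marker list. It did not overlap between the groups, so as a covariate it cannot be told apart from treatment. The members and gene lists were chosen with earlier results of these data known. Values per library were due for members at an unadjusted p under 0.05, the 10 most abundant, Nr1i2, Nr1i3, Rxra and Rxrb, and members touched by an exact 0 or a shared value, and were given for all. Target lists gave genes past the threshold and up to 4 with the smallest unadjusted p. Alternatives covered the pseudocount, the filter, the scaling, the trend, single transcripts, a replicate block, a smooth muscle covariate and leaving out each library. The procedure was tested on simulated data.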

Additional observations from a re-analysis of the deposited data

How the results depend on the processing

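Every alternative gave 0 members past the adjusted threshold, and the fold change of Nr1i2 kept its direction and its side of the threshold in all of them (0.17 to 0.38 on the log2 scale, adjusted p from 0.436 to 0.864). The number of members at an unadjusted p under 0.05, 1 in the fit reported, was 2 with a pseudocount of 0.1, 2 after rescaling to TPM, 3 with the most abundant transcript in place of sums, 0 without the trend, 3 with the smooth muscle covariate and 2 with transcripts at 0 in 2 or more libraries left out, a setting chosen after seeing the data. It ran from 1 to 5 when each library was left out. The median fold change of the members was 0.13 with TPM, a scaling that put the median of all genes at 0.05. Targets past the adjusted threshold, 6 in the fit reported, numbered 20 at a mean of at least 5 FPKM, 15 with TPM, 0 with single transcripts, 1 without the trend, 0 with the smooth muscle covariate and 20 without the transcripts at 0, and from 0 to 4 when each library was left out. Over all genes the calls, 15 in the fit reported, numbered 56, 37, 1, 2, 0 and 50 under the same settings in that order. The rank of Nr1i2 was 10 to 11 when each library was left out. With the most abundant transcript in place of sums the log2 fold change was −0.0498 for Nr3c1, −0.0922 for Rxra and 0.46 for Rxrb, and with the smooth muscle covariate it was −0.11 for Nr1h2. The causes of these differences were not tested.

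The replicate numbers are shared by the groups but nothing in the labels pairs the libraries, and same-numbered libraries deviated together with a correlation across genes of only 0.034. With a replicate block 2 members had an unadjusted p under 0.05, 0 passed the adjusted threshold (Nr1h4, adjusted p = 0.0818), and 20 targets did, of 60 calls over all genes. Ppargc1a had an unadjusted p of 0.0111 there (adjusted p = 0.253). With 2 libraries a group, and fits with a library left out on 1 residual degree of freedom, a missed threshold does not show that a level was the same.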
